A study of Mus musculus with 9 samples.

Results

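Imprinted genes were followed in sorted mouse pancreatic ductal adenocarcinoma (PDAC) cells with and without Yap. The set is a list of 45 gene symbols, matched to the Ensembl identifiers of the count files, out of 47643 genes counted. The 45 genes fall into 18 imprinted clusters or single loci on 10 chromosomes, 18 of them on chromosome 7, and 37 are annotated as protein-coding and 8 as non-coding. KPF mice carry Trp53 frt/+, Pdx-Flp and R26 FSF-CreER/Dual alleles among others, and KPYYF mice carry the same alleles together with Yap flox/flox. In both genotypes Flp driven by the Pdx promoter recombines Trp53 in the pancreas and switches on GFP, and tamoxifen, given in the diet once tumors were palpable, activates CreER, which exchanges GFP for the red reporter Tm and, in KPYYF mice, deletes Yap. GFP+Yap+ cells were sorted from tumors of tamoxifen-treated KPF mice (n = 6 libraries), and Tm+Yap- cells were sorted from relapsed nodules of tamoxifen-treated KPYYF mice (n = 3 libraries). Genotype, Yap status, reporter color with recombination by CreER, and origin in a tumor or a relapsed nodule changed together and cannot be told apart. Ages were not given in the labels. Libraries are named here by the mouse number in the labels, 4269, 4435, 4504h, 4504s, 4515 and 4601 for KPF and 4449, 4891 and 4938 for KPYYF. The numbers 4504h and 4504s differ only by a letter, and if they are one mouse the KPF group holds fewer animals than libraries.

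Genomic imprinting is the expression of a gene mainly from the copy inherited from one parent. It is set by DNA methylation laid down in the germ line at control regions, which is kept through the later erasure of methylation by zinc finger proteins such as ZFP57 with their partner TRIM28. Imprinted genes lie in clusters, in which non-coding RNAs such as H19, Airn, Kcnq1ot1 and Meg3 are expressed from one parental copy and protein-coding neighbours often from the other. Many of them, such as Igf2, Dlk1 and Peg3, are highly expressed in the fetus and placenta and low in adult tissue, and they act on growth, with Igf2 promoting it and Igf2r, Grb10 and Cdkn1c restraining it. The counts used here do not separate the parental copies. Here "maternal" and "paternal" name the copy known to be active in tissues where the gene is imprinted, as background, and not a measured allele. Imprinting can be limited to a tissue, as for Ube3a in neurons, and was not measured in these cells.

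The assay was 3′ end RNA-seq, in which reads come from the 3′ end of polyadenylated RNA, and levels are given as CPM, counts scaled by library size after TMM normalization. KPF libraries had 8264587 to 9635514 reads counted on genes and KPYYF libraries 8116539 to 8725132, so that 3 counts, the limit that a count of 0 allows, equal 0.292 to 0.437 CPM. This limit covers counting error only. Genes with at least 100 counts in all over the 9 libraries were tested (14105 genes) with edgeR's quasi-likelihood test, and adjusted p is the Benjamini-Hochberg value over all of them. A looser rule from the study's methods, an unadjusted p under 0.05 with a change over 2-fold, is called the unadjusted rule below. Yap1, the deleted gene, was at 99.3 ± 41.8 CPM (SD, n = 6) in KPF and at 3.56 ± 3.27 CPM (SD, n = 3) after its deletion (a log2 change of -4.79 ± 0.72, SE, adjusted p = 0.0159). All 10 markers of ductal epithelium had counts, and their summed level was 3867 to 12642 CPM in KPF and 679 to 2322 CPM in KPYYF libraries, with a negative log2 fold change for all 10. Summed acinar markers reached 22171 CPM in 4504s and 6891 CPM in 4449, against 73.9 to 1110 CPM in the other 7 libraries, and immune markers reached 7889 CPM in 4601. Xist, the RNA of the inactive X chromosome, had at least 3452 reads in 4435, 4504h, 4504s and every KPYYF library and at most 159 in 4269, 4515 and 4601.

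Several of the imprinted RNAs are hosts of microRNAs, and those of H19 and Igf2, both higher by the unadjusted rule given above, and the pair with a common seed in Mirg are shown. RefSeq places 45 mature microRNAs from 24 hairpins on the same strand within 8 of the genes, 14 of the hairpins within Mirg. Capitals mark the seed, bases 2 to 8.
miR-675-5p: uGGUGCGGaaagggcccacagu
miR-675-3p: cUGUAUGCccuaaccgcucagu
miR-483-5p: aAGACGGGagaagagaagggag
miR-483-3p: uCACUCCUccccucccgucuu
miR-453: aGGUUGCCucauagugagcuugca
miR-496a-5p: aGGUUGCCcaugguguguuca

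The miR-675 pair lies in H19, the miR-483 pair in Igf2, and miR-453 and miR-496a-5p in Mirg. Among the 45 mature sequences there were 44 seeds, and the seed held in common was that of miR-453 and miR-496a-5p. The libraries read polyadenylated host RNA and not mature microRNAs, whose levels were not measured.

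RefSeq promoter sequence (build GRCm38.p6) was matched for 34 of the genes. The 4 promoters shown belong to Slc22a18, the gene with the smallest p, and to Igf2r, Dlk1 and Grb10, and they span the range of CpG density in the set. Each line gives the 250 bases before the first listed start, 5′ to 3′ on the gene's strand, ended where an annotated exon begins (Slc22a18, 197 bases), with CpG dinucleotides, the sites of DNA methylation, in capitals.
Slc22a18, chr7:143473539-143473735, plus strand: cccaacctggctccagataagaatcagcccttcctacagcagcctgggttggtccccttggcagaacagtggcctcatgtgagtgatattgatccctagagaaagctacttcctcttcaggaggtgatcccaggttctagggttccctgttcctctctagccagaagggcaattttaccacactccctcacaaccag
Igf2r, chr17:12769707-12769956, minus strand: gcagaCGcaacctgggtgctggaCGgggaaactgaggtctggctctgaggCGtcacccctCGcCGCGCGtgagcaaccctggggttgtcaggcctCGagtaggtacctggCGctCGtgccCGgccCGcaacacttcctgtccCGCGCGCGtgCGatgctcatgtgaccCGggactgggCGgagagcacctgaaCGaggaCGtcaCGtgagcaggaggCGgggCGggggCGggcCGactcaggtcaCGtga
Dlk1, chr12:109452573-109452822, plus strand: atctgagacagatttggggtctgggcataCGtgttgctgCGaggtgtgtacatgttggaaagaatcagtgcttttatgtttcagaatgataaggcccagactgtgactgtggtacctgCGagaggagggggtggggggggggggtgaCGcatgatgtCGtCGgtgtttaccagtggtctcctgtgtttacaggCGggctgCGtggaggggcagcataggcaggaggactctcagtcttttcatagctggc
Grb10, chr11:12037421-12037670, minus strand: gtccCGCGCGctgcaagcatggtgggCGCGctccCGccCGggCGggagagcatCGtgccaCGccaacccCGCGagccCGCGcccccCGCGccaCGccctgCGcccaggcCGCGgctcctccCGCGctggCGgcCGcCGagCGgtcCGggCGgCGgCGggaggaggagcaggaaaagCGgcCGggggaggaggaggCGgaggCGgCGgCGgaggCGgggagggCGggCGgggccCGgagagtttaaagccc

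Over 250 bases, the Slc22a18 promoter held 0 CpG, that of Dlk1 8, that of Igf2r 27 and that of Grb10 40. The median of the 34 promoters was 10, against 6 over 32851 promoters of the same length. The 34 are the first listed promoter of each gene, while the 32851 include alternative promoters, here and in the shares below. The letters TGCCGC, which ZFP57 recognizes, were present on either strand in 6 of 34 (17.6%), against 8.68% of all promoters, and the letters GGAATG, the core bound by the TEAD partners of Yap, in 5 of 34 (14.7%), against 12.6%. These are matches of letters and not measured sites, and none of the 4 promoters printed held either.

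In KPYYF cells the transporter gene Slc22a18 fell to the limit of detection. By the unadjusted rule the non-coding RNA H19, the fetal genes Igf2 and Dlk1, and the growth-restraining genes Cdkn1c and Igf2r were higher. By that rule Grb10, which also restrains growth, and Dio3, Ndn, Nnat and Slc38a4 were lower as well. Of the 45 genes, 43 had at least 1 count and 37 were tested, and Magel2 and Nap1l5 had no count in any library. With an adjusted p under 0.05, 1 gene fell, Slc22a18, and none rose in edgeR's test, where 0.794% of all genes tested fell and 0.305% rose. DESeq2's Wald test called 3 higher (H19, Dlk1 and Igf2r) and 4 lower (Slc22a18, Grb10, Dio3 and Ndn), where it called 1.96% of all genes with an adjusted p higher and 6.75% lower. By the unadjusted rule, 5 genes were higher (Dlk1, Igf2, H19, Cdkn1c and Igf2r) and 6 lower (Slc22a18, Grb10, Dio3, Ndn, Nnat and Slc38a4), where all genes gave 4.20% higher and 9.20% lower. The 11 genes with an unadjusted p under 0.05 compare with 16.1% of all genes. In 1 gene, Igf2r, every KPYYF library lay above every KPF library (3.92% of all genes), and in 4, Slc22a18, Dio3, Copg2 and Grb10, every KPYYF library lay below (5.18%). Log2 fold changes were positive in 22 and negative in 15 of the 37 tested genes, with a median of 0.28 beside -0.07 over all genes. The sign of that median turned without 4449 (-0.57), and with all 9 libraries in limma-voom (-0.71).

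**Figure D1:**
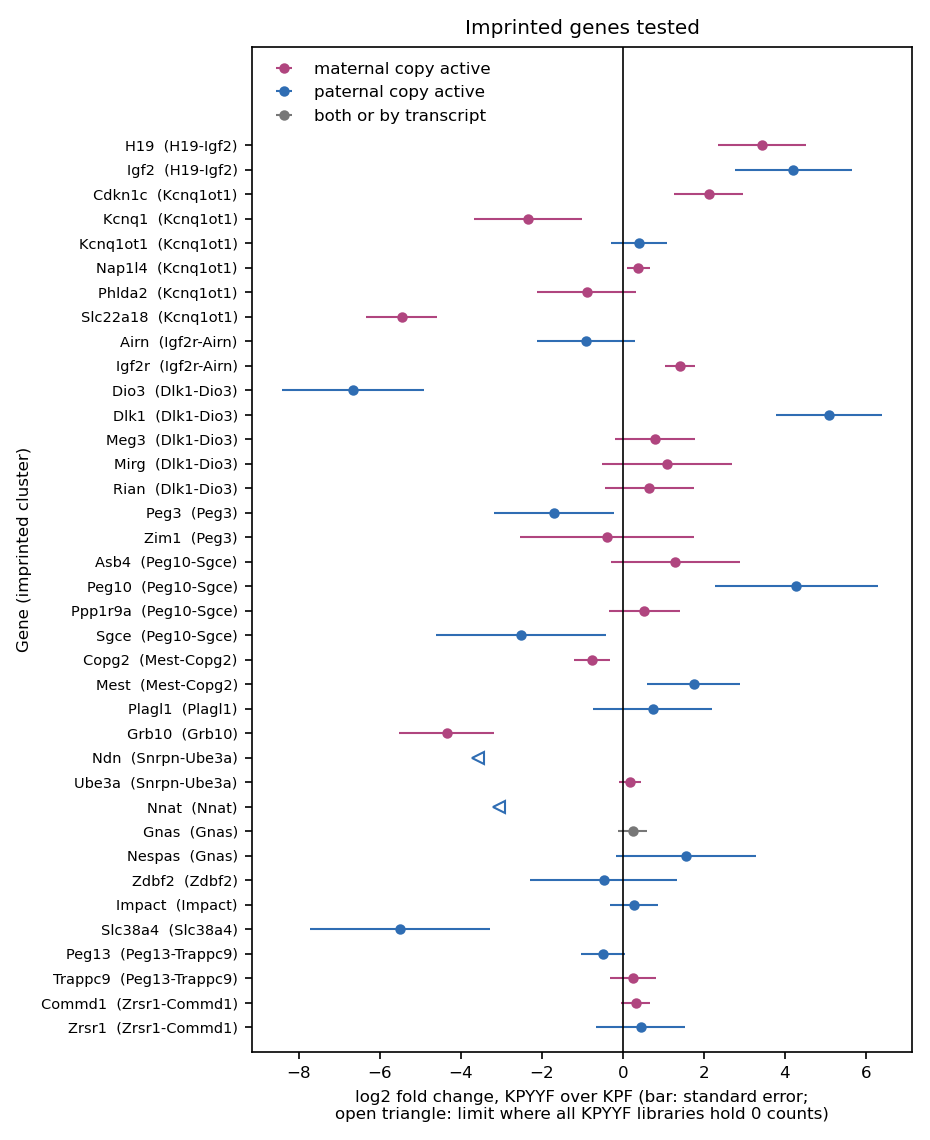
Log2 fold change (KPYYF over KPF, edgeR) of the 37 imprinted genes tested, with the standard error as the bar and a color for the parental copy known to be active; open triangles are limits for genes with 0 counts in every KPYYF library. Dlk1 (5.09) has the highest point and Dio3 (-6.67) the lowest closed point, Slc22a18 (-5.46) has one of the shortest bars among the low genes, and genes of either parental class lie on both sides of 0.

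By the parental copy known to be active, 19 genes are maternal and 25 paternal, and Gnas has products of both kinds. Of 18 tested maternal genes, 3 were higher and 2 lower by the unadjusted rule, and the median log2 fold change was 0.35. Of 18 tested paternal genes, 2 were higher and 4 lower, and the median was -0.10. The difference between the classes was not tested. The maternal class includes Ube3a, which is imprinted in neurons, so the classes need not reflect the copy active in these cells.

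H19 (ENSMUSG00000000031, chromosome 7 from 142575529 to 142578143, GRCm38), a non-coding RNA of the maternal copy, and Igf2 (ENSMUSG00000048583, chromosome 7 from 142650766 to 142666816), the fetal growth factor of the paternal copy, were both highest in 4891. H19 had a lowest, median and highest KPF level of 8.17, 53.5 and 201 CPM and was at 269, 2346 and 133 CPM in 4449, 4891 and 4938. All KPYYF libraries were above the KPF median, and the KPF libraries 4504s and 4515 reached into the KPYYF range. The comparison gave a log2 change of 3.43 ± 1.09 (SE, adjusted p = 0.169), and an exact permutation test on log2 CPM, two-sided, gave p = 0.0476. Igf2 was at 0.584, 5.39 and 37.0 CPM (lowest, median and highest) in KPF and at 24.3, 570.3 and 19.8 CPM in the KPYYF libraries in the same order. The KPF library 4504s lay above 2 of the KPYYF libraries, so the groups overlapped. Igf2 had a log2 change of 4.21 ± 1.45 (SE, adjusted p = 0.198), and the exact permutation test gave p = 0.0714. Without 4891, which held 21454 of the 24931 H19 counts and 5216 of the 5602 Igf2 counts in KPYYF libraries, the log2 fold changes were 1.24 (adjusted p = 0.605) for H19 and 1.00 (adjusted p = 0.775) for Igf2. In counts, H19 exceeded Igf2 in every library, by 3.86 to 51.0 times in KPF and 4.11 to 11.0 times in KPYYF libraries. On the same strand, 62.8% of the exon length of Igf2 is shared with the gene model Gm49394, which was not analysed here.

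Igf2r (ENSMUSG00000023830, chromosome 17 from 12682406 to 12769664), the receptor that takes Igf2 to the lysosome, had a lowest, median and highest KPF level of 27.4, 48.7 and 97.0 CPM, and was at 118, 138 and 147 CPM in 4449, 4891 and 4938. Every KPYYF library was above every KPF library, the nearest KPF library being 4269. The comparison gave a log2 change of 1.41 ± 0.37 (SE, adjusted p = 0.0932), and the exact permutation test gave p = 0.0119, the smallest that 84 splits of 9 libraries allow. Without 4269 its adjusted p was 0.0377. Airn, the antisense RNA that silences Igf2r on the paternal copy, ranged over 0 to 21.7 CPM in KPF and 2.63 to 5.90 CPM in KPYYF libraries (adjusted p = 0.783).

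Grb10 (ENSMUSG00000020176, chromosome 11 from 11930508 to 12038683), an adaptor that binds and restrains insulin and IGF1 receptors, was lower in KPYYF cells. It had 4.66, 29.9 and 71.8 CPM (lowest, median and highest) in KPF libraries and 0.237, 1.42 and 2.96 CPM in 4449, 4891 and 4938, with no overlap. The KPF libraries themselves fell into 4.66 to 11.5 CPM in 4601, 4269 and 4515 and 48.4 to 71.8 CPM in the other 3, which are the KPF libraries with high Xist. Grb10 had a log2 change of -4.35 ± 1.16 (SE, adjusted p = 0.102) and an exact permutation p of 0.0238. Among the libraries with at least 1000 Xist reads, 3 of each group, its log2 fold change was -5.15 (adjusted p = 0.0395). The KPF libraries there include 4504h and 4504s, which may be 1 mouse. Across 18 alternatives the adjusted p of Grb10 was under 0.05 in 2 and reached 0.403.

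**Figure D2:**
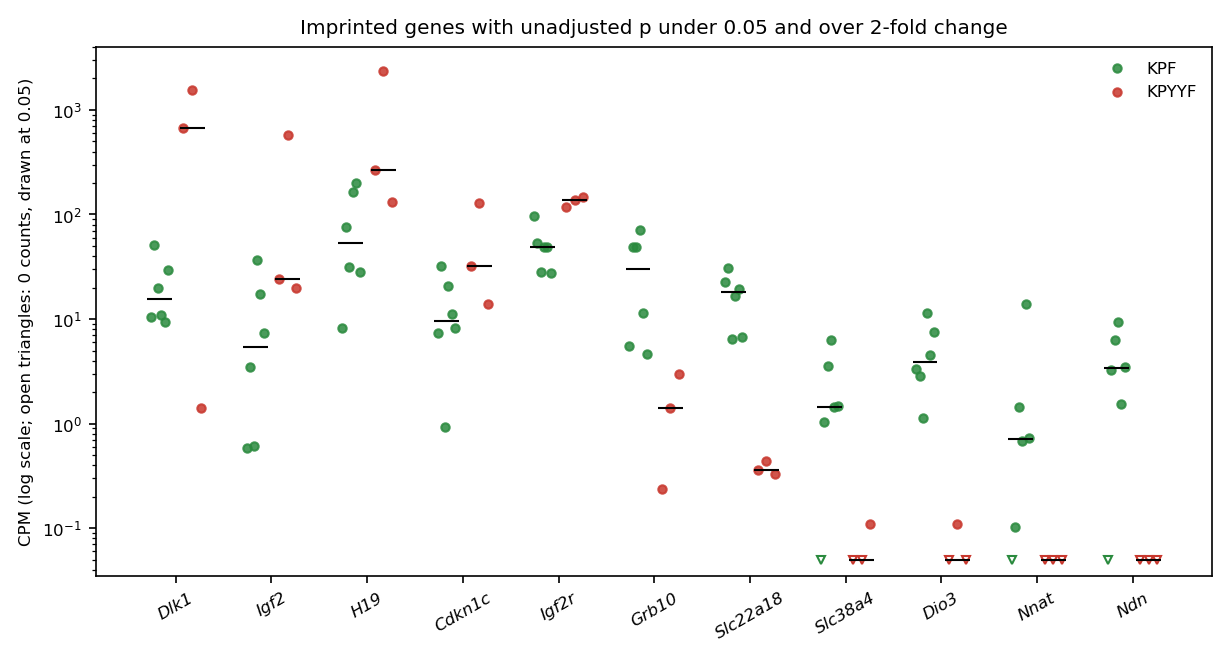
CPM on a log scale of the imprinted genes with an unadjusted p under 0.05 and a change over 2-fold, with a point for each of the 6 KPF and 3 KPYYF libraries and a line at each group's median (open triangles are libraries with 0 counts). Igf2r, Slc22a18, Dio3 and Grb10 show no overlap between the groups, and the Dlk1 column shows 4938 at 1.42 CPM below every KPF library while 4449 and 4891 lie at 672 and 1567 CPM.

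The Kcnq1ot1 cluster on chromosome 7 held the gene with the smallest p. Slc22a18 (ENSMUSG00000000154, chromosome 7 from 143473736 to 143499334), an organic cation transporter expressed from the maternal copy, was at 6.44, 18.1 and 30.6 CPM (lowest, median and highest) in KPF libraries and at 0.356, 0.437 and 0.329 CPM in 4449, 4891 and 4938, equal to 3, 4 and 3 counts. Every KPYYF library was close to the limit that a count of 0 allows, and the nearest KPF library, 4504h, was at 6.44 CPM. Slc22a18 had a log2 change of -5.46 ± 0.87 (SE, adjusted p = 0.0176), and the exact permutation test gave p = 0.0119. Its adjusted p was 0.0512 without 4435, 0.0553 without 4891 and 0.0604 without 4938, and under 0.05 when any of the other 6 libraries was left out. Its exons overlap no other gene.

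Cdkn1c (ENSMUSG00000037664, chromosome 7 from 143458339 to 143461050), an inhibitor of cyclin-dependent kinases next to Slc22a18, went the other way. It had 0.920, 9.62 and 32.1 CPM (lowest, median and highest) in KPF libraries and 32.2, 128 and 13.9 CPM in 4449, 4891 and 4938, and the KPF library 4435 was at the level of 4449. It had a log2 change of 2.12 ± 0.85 (SE, adjusted p = 0.243), and 0.79 without 4891 (adjusted p = 0.748). With all libraries the exact permutation test gave p = 0.107. Of its exon length 30.7% lies opposite Gm44732, and the strand setting of the counting is not given in the sources used here. Kcnq1ot1, the paternal RNA that silences the cluster in cis, had 16.9, 48.4 and 171 CPM (lowest, median and highest) in KPF libraries and 169, 25.3 and 68.4 CPM in KPYYF libraries (log2 change 0.40, adjusted p = 0.843), with each group spread over most of the range of the other. Kcnq1, a potassium channel subunit, had 4.50, 35.3 and 187 CPM in KPF and 20.8, 11.2 and 0.438 CPM in KPYYF libraries (log2 change -2.35, adjusted p = 0.439), and 4938 was lower than any KPF library. Nap1l4, a nucleosome assembly protein, was among the steadiest, with 274, 390.2 and 429.9 CPM in KPF and 277, 620.3 and 537 CPM in KPYYF libraries (log2 change 0.38, adjusted p = 0.569). Phlda2, which restrains placental growth, ranged over 3.37 to 35.6 CPM in KPF and 0 to 14.8 CPM in KPYYF libraries (adjusted p = 0.789). Ascl2, a transcription factor of intestinal stem cells and placenta, had too few counts to be tested and was at 5.25 CPM in 4891 and at most 1.60 CPM elsewhere.

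The Dlk1-Dio3 cluster on chromosome 12 separated the KPYYF libraries from each other. Dlk1 (ENSMUSG00000040856, chromosome 12 from 109452823 to 109463336), a transmembrane protein of fetal progenitor cells, was at 9.30, 15.5 and 51.0 CPM (lowest, median and highest) in KPF libraries and at 672, 1567 and 1.42 CPM in 4449, 4891 and 4938. Both 4449 and 4891 lay over 10 times above the highest KPF library, and 4938 lay below the lowest. The comparison gave a log2 change of 5.09 ± 1.31 (SE, adjusted p = 0.115), and the exact permutation test of log2 CPM gave p = 0.214. Without 4938 the log2 fold change was 5.68 (adjusted p = 0.0201), and without 4891 it was 3.94 (adjusted p = 0.259). With limma-voom, which averages log values, it was 1.78 (adjusted p = 0.655).

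Meg3, the long non-coding RNA made from the maternal copy of the same cluster, was likewise low in 4938 and high in 4449 and 4891. It was at 180.2, 615 and 1681 CPM (lowest, median and highest) in KPF libraries and at 2087, 1980 and 26.4 CPM in 4449, 4891 and 4938, with a log2 change of 0.80 ± 0.99 (SE, adjusted p = 0.766). The 4938 level was below every KPF library and that of 4449 and 4891 above every one. Rian, a host of small nucleolar RNAs, was at 91.1, 15.4 and 0.329 CPM in the KPYYF libraries, and Mirg, the microRNA host, at 29, 3.83 and 0.110 CPM, against 8.27 to 66.3 CPM and 0 to 14.8 CPM in KPF. Both were highest in 4449 and lowest among KPYYF libraries in 4938. Counts of Meg3 were 17.3 to 99.0 times those of Dlk1 in KPF libraries, 18.5 times in 4938, and 3.11 and 1.26 times in 4449 and 4891.

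**Figure D3:**
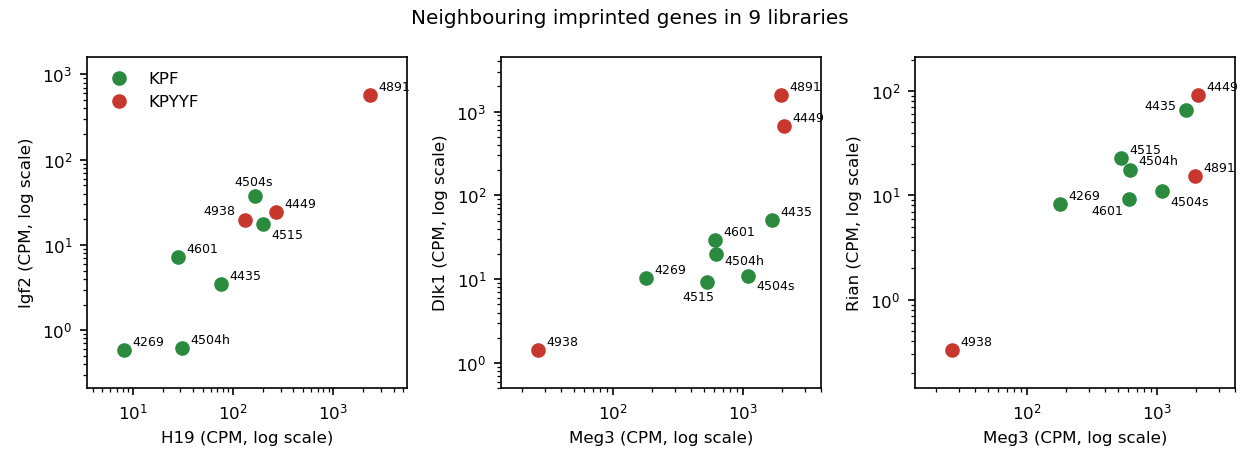
Levels of neighbouring imprinted genes against each other in 9 libraries (CPM, both axes on log scales; green KPF, red KPYYF; labels are mouse numbers): H19 and Igf2, Meg3 and Dlk1, and Meg3 and Rian. The library 4891 stands highest for H19 and Igf2, 4449 and 4891 stand above all others for Dlk1, and 4938 stands lowest for Meg3, Dlk1 and Rian.

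At the far end of that cluster, Dio3 (ENSMUSG00000075707, chromosome 12 from 110279068 to 110281097), the deiodinase that inactivates thyroid hormone, had 267 counts in KPF libraries and 1 count in KPYYF libraries. KPF levels were 1.12, 3.92 and 11.5 CPM (lowest, median and highest) and KPYYF levels 0, 0.109 and 0 CPM, with no overlap. The depth-scaled ratio of KPF to KPYYF was 131, with a 95% counting interval of 23.3 to 5184. The adjusted p of Dio3 was 0.0914, and the exact permutation test gave p = 0.0119. Rtl1, a retrotransposon-derived gene of the placenta, had 1 count in all.

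A group of paternally expressed genes was at or near 0 in KPYYF libraries. Ndn (ENSMUSG00000033585, chromosome 7 from 62346569 to 62350262), necdin, a MAGE family protein, had 0, 3.39 and 9.45 CPM (lowest, median and highest) in KPF and 0 counts in each of 4449, 4891 and 4938, and was at least 11.9-fold lower in KPYYF when set at 3 counts in each library. Nnat (ENSMUSG00000067786, chromosome 2 from 157560078 to 157562522), neuronatin, a small membrane proteolipid of neurons and endocrine cells, had 0, 0.706 and 14.1 CPM in KPF and 0 counts in each KPYYF library, and was at least 8.39-fold lower. For Ndn the KPF library 4269 was also at 0, and for Nnat 127 of the 153 KPF counts came from 4515, without which the bound was 1.74-fold. The adjusted p was 0.139 for Ndn and 0.222 for Nnat, and the exact permutation test gave p = 0.0714 and 0.0952. Slc38a4 (ENSMUSG00000022464, chromosome 15 from 96994820 to 97055956), an amino acid transporter of liver and placenta, had 0, 1.45 and 6.26 CPM in KPF and 0, 0 and 0.110 CPM in KPYYF libraries, with 123 against 1 counts (ratio 60.2, 95% counting interval 10.6 to 2398, adjusted p = 0.237). Its exact permutation p was 0.0833. Usp29, a deubiquitinase, and Peg12, a Frat-like protein, had too few counts to be tested and 0 in all KPYYF libraries, at least 2.75-fold and 2.22-fold lower. These bounds rested on 1 library each, with 32 of the 49 Usp29 counts in 4515 and 31 of the 41 Peg12 counts in 4435. Without it the KPF mean was 0.406 CPM for Usp29 and 0.265 CPM for Peg12, under the 0.437 CPM that 3 counts came to in 4601, so that no fold is given. Mkrn3, a ring finger protein, had 21 against 1 counts (ratio 10.3, 1.65 to 425) and Snrpn, a spliceosomal protein of neurons, 25 against 3 (ratio 4.08, 1.25 to 21.1). The KPF library 4435 held 14 of the 21 Mkrn3 counts and 4504s 14 of the 25 Snrpn counts. The exact permutation test gave p = 0.393 for Mkrn3 and 0.321 for Snrpn, as the counting intervals leave out the spread between libraries. Snrpn shares its exons with Snurf, listed at 0, so reads on both may have been set aside as ambiguous.

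Of the 42 imprinted genes with more than 3 counts in some KPF library, 8 had at most 3 counts in every KPYYF library, which was close to the 20.9% of all genes that did so, among 19572 with more than 3 counts in some KPF library. All 8 (Dio3, Ndn, Slc38a4, Usp29, Nnat, Peg12, Mkrn3 and Snrpn) were of the paternal class, out of 22 paternal and 19 maternal genes with such KPF counts. The difference between the classes was not tested, and neither was imprinting of these genes in these cells. Ndn, Mkrn3, Peg12 and Snrpn lie in the same cluster. The highest count in any KPF library was 14 to 127 for the 8 genes and 11 to 16411 for the maternal genes. No imprinted gene passed 3 counts in KPYYF libraries alone, where 908 of all 47643 genes did. This was nearly fixed beforehand, because the genes outside the 42 were Rtl1, Magel2 and Nap1l5, with 1, 0 and 0 counts in all. No conclusion is drawn from it. Per library, 27 to 40 of the 45 genes had more than 3 counts in KPF and 25 to 30 in KPYYF. For the paternal genes alone these numbers were 10 to 20 of 25 and 10 to 12 of 25, and for the maternal genes 16 to 19 of 19 and 14 to 17 of 19. The share of all tested genes with more than 3 counts was also lower in KPYYF libraries, 84.3 to 88.7% against 87.7 to 96.8%, and its part in these counts was not tested. The KPF libraries with most imprinted genes over the limit were 4504s (40) and 4601 (39), which also had the most acinar and the most immune marker reads. They likewise had the most genes of any kind over 3 counts, 15995 and 15854, against 13243 to 14459 in the other KPF libraries.

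**Figure D4:**
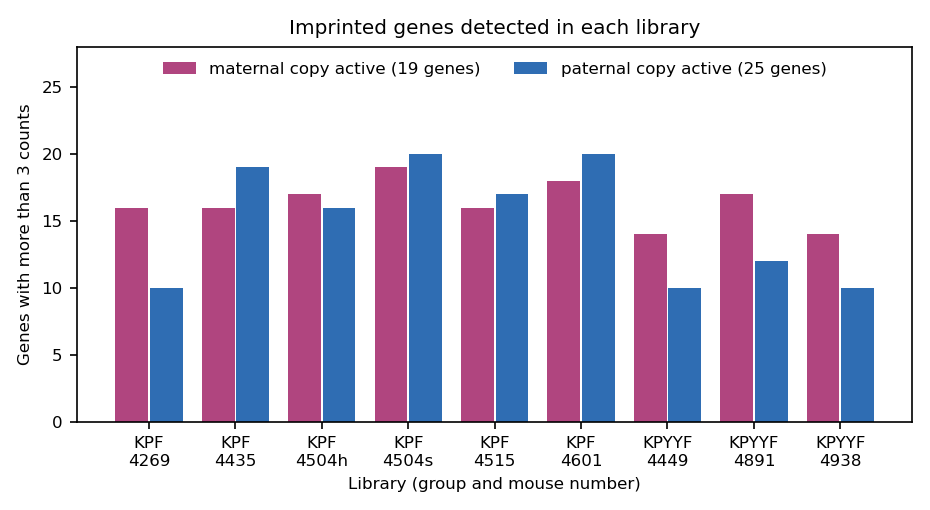
Number of imprinted genes with more than 3 counts in each library, split into genes of the maternal and of the paternal copy. KPF libraries hold 10 to 20 paternal genes and KPYYF libraries 10 to 12, while maternal genes number 14 to 19 in every library.

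Other abundant genes of the set had log2 fold changes close to 0. Gnas, which encodes the stimulatory G protein alpha subunit and has products of both parental copies, had 134, 281 and 443 CPM (lowest, median and highest) in KPF and 445, 234 and 317 CPM in KPYYF libraries (log2 change 0.24, adjusted p = 0.803). Ube3a, a ubiquitin ligase that is imprinted in neurons, had 119, 149 and 227 CPM and 193, 152 and 174 CPM (log2 fold change 0.17, adjusted p = 0.826). Impact, an inhibitor of the stress kinase Gcn2, had 12.6, 30.7 and 55.6 CPM and 88.0, 10.9 and 26.2 CPM (log2 fold change 0.28, adjusted p = 0.875), and its highest and lowest levels were both in KPYYF libraries, 4449 and 4891. Copg2, a coatomer subunit, was within 18.7 to 24.7 CPM in KPF (median 21.3) and at 7.12, 17.1 and 13.8 CPM in 4449, 4891 and 4938. Its groups did not overlap, but its adjusted p was 0.442 (log2 fold change -0.76), and 17.8% of its exon length lies opposite exons of Mest on the other strand.

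The remaining genes had no unadjusted p under 0.05 and overlapped between the groups. Mest, a paternally expressed hydrolase-fold gene of the fetus, ranged over 0 to 12.1 CPM in KPF and 7.56 to 24.8 CPM in KPYYF libraries. Peg3, a zinc finger gene of the paternal copy, was at 0, 0.656 and 31.5 CPM in 4449, 4891 and 4938 against 5.83 to 103 CPM in KPF, so that 4938 alone of the KPYYF libraries was in the KPF range. Its neighbour Zim1 likewise had 3.29 CPM in 4938 and at most 0.109 CPM in the other KPYYF libraries. Peg10, a Gag-like gene needed in placenta, was at 33.5 CPM in 4891 and at 0 in 4449 and 4938, against at most 2.25 CPM in KPF. Plagl1, a zinc finger factor that regulates other imprinted genes, was at 0, 57.1 and 2.30 CPM in the KPYYF libraries, and Asb4 at 23.7, 0.109 and 0 CPM. Zrsr1, a retrogene in an intron of Commd1, ranged over 2.87 to 36.6 CPM in KPF and 0.219 to 53.3 CPM in KPYYF libraries, and Commd1 itself over 17.8 to 29.8 CPM in KPF and 26.0 to 32.9 CPM in KPYYF libraries. Sgce, Ppp1r9a, Nespas, Zdbf2, Peg13 and Trappc9 had adjusted p between 0.611 and 0.939.

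**Figure D5:**
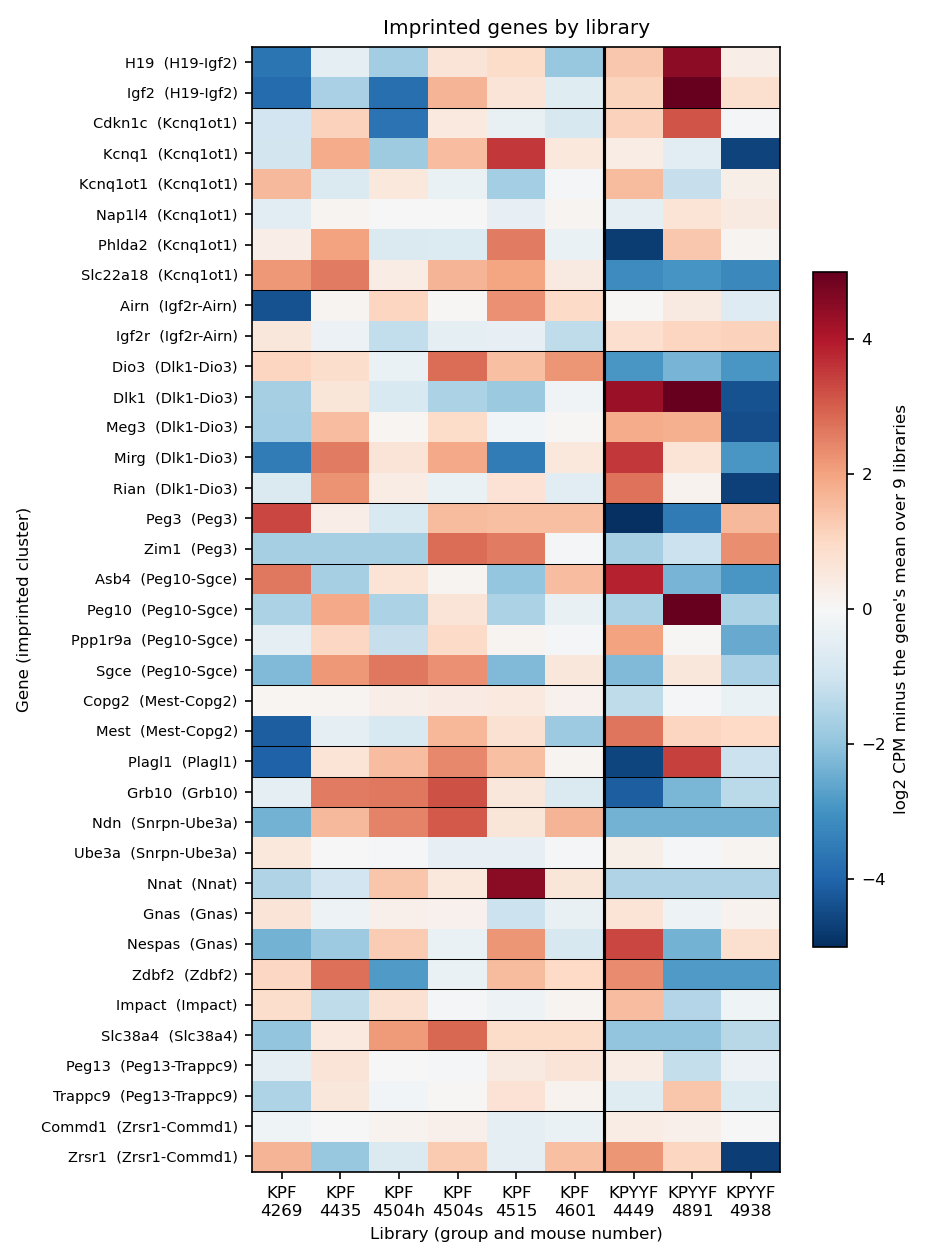
Log2 CPM of the 37 imprinted genes tested in each library, as the difference from the gene's mean over the 9 libraries, ordered by cluster, with the color scale ending at 5 in either direction. The library 4449 or 4891 is highest for H19, Igf2, Dlk1 and Meg3 and 4938 is low across the Dlk1-Dio3 cluster.

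The spread of imprinted genes between libraries of one group was larger than that of genes at large, which is given as a description without a test. Among KPF libraries the median SD of log2 CPM was 1.45 for the 37 tested genes and 0.78 for all genes tested. The biological coefficient of variation estimated by edgeR had a median of 1.05 against 0.642, and 24 of the 37 (64.9%) had a dispersion over the trend at their level, against 32.4% of all genes. The library with the highest level of a gene was 4449 for 11 of the 37 (29.7%, against 16% of all genes tested) and 4891 for 8 (21.6%, against 12%), and it was never 4601 (14.2% of all genes). In 4938 it was Igf2r alone that reached its highest level.

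Factors that set or keep imprints were checked as a list of 23 genes, of which 20 were tested. By the unadjusted rule 1 was higher and 1 lower, 3 had an unadjusted p under 0.05, and none had an adjusted p under 0.05 with edgeR. Dnmt3l, the cofactor of germ-line methylation, was at 0 to 2.19 CPM in KPF and 4.15 to 13.2 CPM in KPYYF libraries (log2 change 4.00, adjusted p = 0.222). Zfp57, the zinc finger protein that protects imprints, was at 0.775 to 5.42 CPM in KPF and at most 0.119 CPM in KPYYF libraries (log2 change -5.28, adjusted p = 0.149). Neither overlapped between the groups. The median log2 fold change of the list was 0.11.

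The IGF axis was a list of 15 genes, 14 tested. Igf2bp2, an RNA-binding protein of Igf2 mRNA, was higher by the unadjusted rule, at 50.9 to 162 CPM in KPF and 194 to 230 CPM in KPYYF libraries (log2 change 1.05, adjusted p = 0.159). Lower by that rule were Igf1, the adult growth factor (-2.31, adjusted p = 0.203), and the binding proteins Igfbp3 (-3.03, adjusted p = 0.0914) and Igfbp7 (-1.66, adjusted p = 0.173). These 4 were the genes of the list with an unadjusted p under 0.05, none had an adjusted p under 0.05 with edgeR, and the median log2 fold change was 0.24. The IGF1 receptor, Igf1r, ranged from 64.1 to 153 CPM in KPF and 95.6 to 139 CPM in KPYYF libraries (adjusted p = 0.905).

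Of 30 further imprinted genes outside the 45, 20 were tested and 15 of these had a negative log2 fold change, where 53.3% of all genes did, with a median of -0.73. Inpp5f, a phosphoinositide phosphatase, was higher by the unadjusted rule (log2 fold change 1.22, adjusted p = 0.264). Ddc, the enzyme that makes dopamine and serotonin from their precursors, fell, with 3.06 to 41.0 CPM in KPF and at most 0.831 CPM in KPYYF libraries (log2 change -5.61, adjusted p = 0.046). Pon2 (-1.26, adjusted p = 0.127), Tspan32 (-5.06, adjusted p = 0.227) and Sfmbt2 (-5.64, adjusted p = 0.272) were lower by the unadjusted rule only.

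Markers of other cell types were measured in the same libraries, and fewer cells of a type cannot be told apart from less RNA per cell in bulk libraries. Summed over 12 fibroblast markers, KPF libraries had 354 to 4981 CPM and KPYYF libraries 757 to 2753 CPM. The highest sums were in the KPF libraries 4504s (4981 CPM) and 4504h (3756 CPM), where Dlk1 was at 11.0 and 19.9 CPM, and 4449 and 4891, with most Dlk1, had 1371 and 2753 CPM. Among KPYYF libraries, 4938 had both the lowest sum (757 CPM) and the lowest Dlk1 (1.42 CPM). By the unadjusted rule 3 of the 12 were higher, among them Pdgfra (log2 fold change 2.90), and 3 lower, among them Acta2 (-2.65). Summed over 10 islet markers, levels were 2.66 to 107 CPM in KPF and 4.71 to 11.2 CPM in KPYYF libraries, 6 of the 7 tested had a negative log2 fold change and 3 were lower by that rule. Iapp, an islet hormone, was at 0 in every KPYYF library. In the KPF libraries 4269, 4435, 4504h, 4504s, 4515 and 4601, islet sums were 41.9, 10.6, 2.66, 107, 15.8 and 79.2 CPM. In the same order, Ndn was at 0, 3.28, 6.23, 9.45, 1.55 and 3.50 CPM. Nnat was at 0, 0.102, 1.43, 0.683, 14.1 and 0.729 CPM. Schwann cell markers summed to 18.1 to 97.0 CPM in KPF and 0.547 to 7.36 CPM in KPYYF libraries, 4 of the 7 had a count in any library, and Sox10, which defines these cells, was at 0 in all 9 libraries. Endothelial markers summed to 10.9 to 69.5 CPM in KPF and 12.8 to 14.96 CPM in KPYYF libraries, and red cell markers to 13.6 to 260 CPM and 23.3 to 111 CPM. The part of any of these cell types in the values of the imprinted genes was not tested. Libraries 4504s, 4601 and 4449, with the most acinar or immune reads, were left out together after seeing the data. Without them Slc22a18 had a log2 fold change of -5.62 (adjusted p = 0.0301). H19, Igf2 and Dlk1 had 3.99, 5.76 and 5.15, none with an adjusted p under 0.05. The KPYYF libraries left were 4891 and 4938.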

How the data were processed

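The authors deposited, for each of the 9 libraries, raw counts of reads per Ensembl gene without normalization, from QuantSeq 3′ end libraries. Per the labels and the submitters' processing notes, STAR, HTSeq and mm10 were used, and versions and the strand setting of the counting are not given in the sources used here. The study's methods text describes BeadChip hybridization followed by a filter on summed reads and DESeq2, and the files hold whole-number counts. Of the reads listed, 37.3 to 42.0% were assigned to genes and 43.8 to 53.4% did not align uniquely, and the summary lines, which name no gene, were left out of library sizes.

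The 45 members and the other lists were chosen with earlier results of these data known. Symbols and positions came from GENCODE M21 (GRCm38), with which all 45 members were found, and microRNA and promoter sequences from RefSeq (GRCm38.p6). Of these genes 9 overlap exons of another gene on the same strand and 19 on the opposite strand. The members were tested as rows of the whole table with edgeR 4.0.16 (TMM factors 0.833 to 1.08, robust quasi-likelihood test, R 4.3.3) after a filter of at least 100 summed counts, without covariates, with Benjamini-Hochberg adjustment over 14105 genes. Permutation tests were exact and two-sided over 84 splits, with a smallest p of 0.0119. The SE of a log2 change was worked back from the test, as its absolute value divided by the square root of the quasi-likelihood F statistic. Log2 CPM used a prior count of 2. A gene with 0 counts in every KPYYF library was set at 3 counts in each for a lower bound, and a total of 1 to 3 counts was given as a ratio with an exact 95% counting interval. That interval pools the counts of each group and covers counting error only, not the spread between libraries. All values were given for members with an unadjusted p under 0.05, with groups that did not overlap, or among the 12 with the highest mean CPM. From the other lists, genes that met the unadjusted rule were named. Igf1r and the marker genes were picked once their values were known.

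The alternatives tried were DESeq2 1.42.0 (Wald test), RLE and upper quartile normalization, no filter, filterByExpr, limma-voom (limma 3.58.1) with quality weights, 4504h and 4504s summed, libraries with at least 1000 Xist reads, and each library left out. Leaving out 4504s, 4601 and 4449 together was added after seeing the data. On simulated counts of 13507 genes, edgeR recovered 25% of 4-fold and 60% of 16-fold changes with 3.41% false calls. The changed genes were drawn from all genes, with a median biological coefficient of variation of 0.642, against 1.05 for the imprinted genes tested. Recovery in the imprinted genes was not simulated. One allele that both groups carry is not reported here. The p values measure the spread between libraries.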

Additional observations from a re-analysis of the deposited data

Results flagged for a closer look

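In the KPF group, 37 genes were screened for a library that stands far from the other 5, and 2 were found, where chance gives about 1 in 20. Both had their lowest level in 4269. Airn was at 0 CPM in 4269, where the next library was at 4.44 CPM, and the gap took up 0.663 of the group's range of log2 CPM. Plagl1 was at 0.0973 CPM in 4269, where the next library was at 5.68 CPM, with a gap of 0.654 of the range.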

How the results depend on the processing

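No paired analysis was possible because the labels give no replicate numbers shared by the groups and no mouse number occurs in both groups. Across 18 alternatives, 23 of the 37 tested members kept the sign of their log2 fold change, and each of the 11 members with an unadjusted p under 0.05 did so wherever it was fitted. The number of members with an adjusted p under 0.05 was 1, and 7 with DESeq2, 2 without a filter and 0 to 2 when a library was left out (0 without 4435 or 4891, 2 without 4269). Members higher by the unadjusted rule numbered 5, and 3 with limma-voom, 2 among libraries with Xist and 2 (without 4891) to 7 (without 4938) when a library was left out. Members lower by that rule numbered 6, and 3 with limma-voom and 4 to 6 when a library was left out. The median log2 fold change of 0.28 was -0.71 with limma-voom, -0.68 without 4504s, 4601 and 4449, an alternative chosen after seeing the data, and -0.57 to 0.46 when a library was left out. Over all genes tested, 43 higher and 112 lower calls with an adjusted p under 0.05 became 269 and 928 with DESeq2, 88 and 219 without a filter, 6 and 31 among libraries with Xist, 25 and 86 with 4504h and 4504s summed, 44 and 39 with limma-voom, 60 and 177 without 4504s, 4601 and 4449, and 6 to 75 and 13 to 198 when a library was left out. By the unadjusted rule, 592 higher calls became 1204 without a filter. DESeq2 gave no adjusted p for Igf2, Nnat and Peg10. Slc22a18 had an adjusted p under 0.05 in 13 of 18 alternatives, from 5.37e-09 to 0.161, and lost it with limma-voom (0.161) and among libraries with Xist (0.0716) besides the 3 left-out libraries named above. The log2 fold change of Yap1 was -4.56 with limma-voom (adjusted p = 0.0886), -4.65 without 4891 (adjusted p = 0.0553) and -5.78 to -4.31 over all left-out libraries.

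The sign changed for members without an unadjusted p under 0.05. With limma-voom the log2 fold change was -1.43 for Meg3, -2.09 for Rian, -0.94 for Mirg, -2.63 for Asb4, -1.15 for Ppp1r9a, -1.24 for Plagl1, -0.066 for Nespas, -0.32 for Impact and -1.91 for Zrsr1. Without 4504s, 4601 and 4449 it was -0.65 for Kcnq1ot1, -1.83 for Rian, -1.18 for Mirg, -5.56 for Asb4, -0.84 for Ppp1r9a, -0.016 for Gnas, -0.93 for Impact and -0.11 for Zrsr1. Leaving out single libraries gave ranges of -5.56 to 2.10 for Asb4, -0.027 to 0.44 for Gnas, -0.89 to 0.73 for Impact, -0.50 to 0.94 for Kcnq1ot1, -1.38 to 1.77 for Mirg, -3.35 to 1.32 for Plagl1, -1.04 to 1.08 for Ppp1r9a, -1.52 to 1.36 for Rian, -0.77 to 0.58 for Trappc9, -8.06 to 0.19 for Zdbf2, -0.66 to 0.18 for Zim1 and -0.65 to 1.02 for Zrsr1. The causes were not tested.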
